A study of Mus musculus with 6 samples.

Results

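The regions examined here are the OCT4 regions of mouse embryonic stem cells (ESCs) that were gained in Esrrb-GFP medium cells, were retained in Esrrb-GFP negative cells and were never listed for NANOG. They were chosen by measured values, namely the presence of an interval in the OCT4 lists of medium and negative cells and its absence from the OCT4 list of high cells and from all 3 NANOG lists. The rule selected 2205 of the 23767 distinct regions of the series, which is 9.28% of all regions, and this count is set by the rule. The gained and retained regions made up 15.2% of the OCT4 list of medium cells (95% Wilson interval 14.7 to 15.8) and 21.3% of that of negative cells (20.5 to 22.1). Another 156 regions had the same OCT4 pattern but were left out because a NANOG list held them, 149 of them in high cells, 91 in medium cells and 15 in negative cells.

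OCT4 and NANOG ChIP-Seq was performed in E14Tg2a Esrrb-2a-GFPd-IBIH ESCs (E-GFPd1), a reporter line with a destabilised GFP cassette behind the coding sequence at both *Esrrb* alleles, so that GFP follows recent *Esrrb* expression. Cells were cross-linked in medium with FCS and LIF and then sorted into high cells (the top 10% of the GFP distribution), medium cells (the 15% next to negative) and negative cells, and no other agent or genotype separated the groups. There was 1 library per factor and fraction, 6 in all, made from pooled sorts and pooled ChIPs of a single engineered line. No spread between replicates exists, so no p-value is given, and the intervals in the text cover counting error over regions only. The lists hold positions without a signal or read number. The depth of each library is therefore unknown, the cell type could not be checked against marker genes, and no value can be given for regions just inside or just outside the authors' threshold. A region missing from the list of high cells had too little of its highest signal there by that threshold, which is different from no signal. In the paper's average profiles, OCT4 peaks of negative cells that were not called in high cells had detectable OCT4 signal in high cells too. The gained and retained regions are by rule of that kind, so gained means newly listed here.

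OCT4, encoded by *Pou5f1*, is a POU factor that keeps ESCs pluripotent and remains expressed when they leave the naive state. Its POU-specific domain and POU homeodomain together read the octamer, ATGCAAAT, and at many enhancers OCT4 binds beside SOX2 on a composite Oct-Sox element in which CATTGT precedes the octamer. NANOG and ESRRB belong to the naive network and decline as cells commit to differentiate.

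Of the single motifs searched, the octamer had the largest difference between the gained and retained regions and windows 10 kb downstream of them. The following members near genes of the fixed lists had it within 100 bp of the centre. Here and below, a region holds a motif when the match lies in that window, also outside the listed interval. The *Meis2* octamer lies outside its interval and the *Sox2* octamer only partly inside. Each line gives 50 bp of the mm9 assembly, read on the strand that shows the octamer 5′ to 3′, with the octamer in capitals. The genes are *Sox2*, the partner of OCT4 in ESCs, *Zfp281*, a zinc finger factor of pluripotent cells, *Meis2*, a TALE homeobox gene, *Hoxd3*, *Zeb2*, a repressor of E-cadherin, and *Tet1*, a 5-methylcytosine dioxygenase with 2 such regions.
Sox2, chr3:34555188-34555237, minus strand: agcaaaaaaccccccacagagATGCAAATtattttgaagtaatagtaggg
Zfp281, chr1:138543038-138543087, plus strand: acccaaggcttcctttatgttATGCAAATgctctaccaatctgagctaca
Meis2, chr2:115899153-115899202, minus strand: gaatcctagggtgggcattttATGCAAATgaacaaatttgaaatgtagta
Hoxd3, chr2:74569244-74569293, minus strand: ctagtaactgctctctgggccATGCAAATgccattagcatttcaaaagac
Zeb2, chr2:44958812-44958861, plus strand: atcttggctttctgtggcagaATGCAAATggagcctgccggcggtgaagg
Tet1, chr10:62346764-62346813, minus strand: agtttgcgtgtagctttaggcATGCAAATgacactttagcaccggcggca
Tet1, chr10:62365736-62365785, minus strand: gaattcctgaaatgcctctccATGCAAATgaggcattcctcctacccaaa
These lines differ in the bases around the octamer, and none of the 7 regions held the Oct-Sox element with up to 2 mismatches.

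A palindrome that resembles the octamer, ATGCGCAT, was also frequent, and it shares the letters GCGCAT with the searched NRF1 word GCGCATGC. The palindrome was picked after the 8-letter words of the regions had been counted, so its shares are descriptions. The lines below show it, in capitals and on the plus strand, in the members near genes of the fixed lists: *Nr5a2*, a nuclear receptor gene of naive cells, *Tdgf1*, which encodes the Nodal co-receptor Cripto, *Cdx2*, a trophectoderm and posterior homeobox gene with 2 such regions, and the WNT ligand genes *Wnt5a* and *Wnt11*.
Nr5a2, chr1:138776356-138776405: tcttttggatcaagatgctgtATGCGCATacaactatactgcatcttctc
Tdgf1, chr9:110860245-110860294: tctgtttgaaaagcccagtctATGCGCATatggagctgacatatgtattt
Cdx2, chr5:148097898-148097947: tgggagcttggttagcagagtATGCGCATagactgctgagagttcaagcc
Cdx2, chr5:148131873-148131922: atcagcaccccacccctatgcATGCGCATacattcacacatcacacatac
Wnt5a, chr14:29317703-29317752: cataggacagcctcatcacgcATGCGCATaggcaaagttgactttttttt
Wnt11, chr7:105972858-105972907: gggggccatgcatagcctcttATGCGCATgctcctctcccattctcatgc
The word is its own reverse complement and has a CpG at its centre. It lies outside the listed interval for *Tdgf1* and for the *Cdx2* line at chr5:148097898-148097947. The *Wnt5a* and *Wnt11* lines and the *Cdx2* line at chr5:148131873-148131922 also hold the NRF1 word on either strand. The palindrome lay within 100 bp of the centre of 91 gained and retained regions, and none of these 91 also held the octamer.

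The gained and retained regions are 1 of 7 combinations of OCT4 lists, and the plot of regions by fraction shows where they stand. Among NANOG-free OCT4 regions, 4166 were listed in high, medium and negative cells (called constitutive here), 2029 in medium cells only and 1141 in negative cells only. These 3 groups differ from the gained and retained regions by 1 step of the same series of lists and served as comparisons. Of the 2361 regions listed for OCT4 in medium and negative but not high cells, 93.4% (92.3 to 94.3) were in no NANOG list. So were 4166 of the 5718 regions listed in all 3 fractions, 2029 of the 2311 of medium cells only and 1141 of the 1171 of negative cells only.

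**Figure D1:**
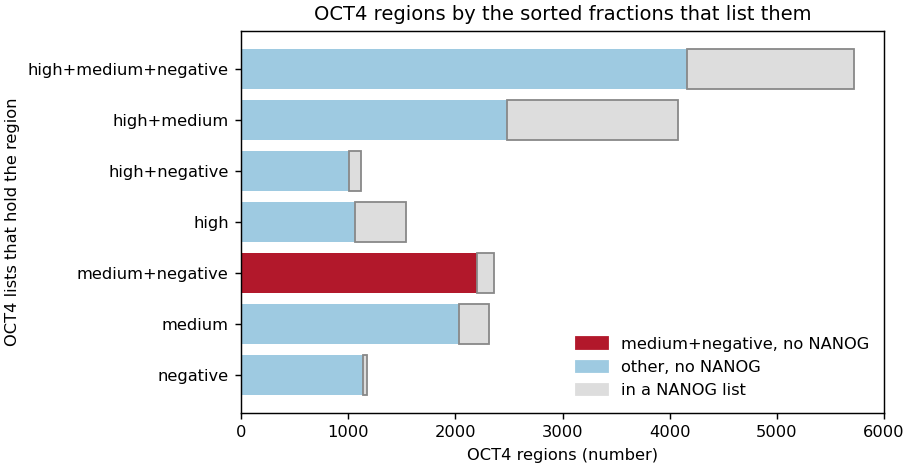
Horizontal bars give the number of OCT4 regions held by each combination of the high, medium and negative lists, split by whether a NANOG list holds the region. The red bar is the 2205 gained and retained regions, and the longest bar, for all 3 fractions, holds 4166 regions without NANOG and 1552 with it.

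The gained and retained regions were narrow. Their widths ran from 40 to 680 bp in steps of 20 bp, with a median of 60 bp and quartiles of 40 and 120 bp. The constitutive regions had a median width of 100 bp (quartiles 60 and 160), while the regions of medium cells only and of negative cells only had medians of 60 bp. Because the authors merged peaks of all datasets, a width depends in part on how many libraries a region was called in. The regions lay on all autosomes and the X chromosome, from 51 on chromosome 16 to 201 on chromosome 2, with 43 on the X and 0 on the Y chromosome.

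Most gained and retained regions were distal. The median distance from a region centre to the nearest transcription start site was 12535 bp (quartiles 3476 and 40180). Of the 2205 regions, 291 (13.2%, 11.8 to 14.7) lay within 1 kb of a start site, 390 between 1 and 5 kb, 675 between 5 and 20 kb, 644 between 20 and 100 kb, and 205 farther away. By the position of their centre, 55.7% were between genes, 38.3% in introns and 5.99% in exons. The share within 1 kb of a start site was 11.8% in constitutive regions, 13.6% in regions of medium cells only and 12.4% in regions of negative cells only, and the 95% intervals of all 3 differences included 0 (−0.28 to 3.16, −2.47 to 1.65 and −1.60 to 3.16 percentage points, members minus group). Within 5 kb the difference from the constitutive regions was 2.39 percentage points (0.043 to 4.77). The gained and retained regions were less often between genes than the regions of negative cells only, by −4.30 percentage points (−7.79 to −0.76), but not when the interval was widened for the 60 differences computed (−10.2 to 1.74).

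Base composition differed from that of constitutive regions. In the 200 bp around the centre, the median GC content of gained and retained regions was 49.5% (quartiles 46 and 53.5), against 48.5% for constitutive regions, 51% for regions of medium cells only and 48.5% for regions of negative cells only. CpG islands are CpG-dense stretches found at many promoters of housekeeping and developmental genes. Windows with over 50% GC and a CpG content over 0.6 of that expected from base composition made up 6.58% of gained and retained regions (5.62 to 7.69), against 1.95% of windows 10 kb downstream of them. Constitutive regions met the criteria in 3.98% of cases, 2.59 percentage points less (1.44 to 3.83, or 0.66 to 4.78 when widened for 60 differences). The shares in regions of medium cells only (6.80%) and negative cells only (4.91%) were not separated from it, with differences of −0.23 (−1.75 to 1.28) and 1.67 (−0.040 to 3.24). Among the gained and retained regions, the criteria were met by 22.3% of those within 1 kb of a start site and by 4.18% of those farther away, a difference of 18.2 percentage points (13.6 to 23.3).

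OCT4 motifs were more frequent in gained and retained regions than 10 kb away, and their frequency lay between that of constitutive regions and that of regions of medium cells only. The octamer ATGCAAAT, searched on both strands within 100 bp of the centre, was present in 230 regions (10.4%, 9.22 to 11.8), against 1.50% of the windows 10 kb downstream and 9.45% of all OCT4 regions. It was present in 12.3% of constitutive regions, 6.46% of regions of medium cells only and 10.7% of regions of negative cells only. The difference from medium cells only was 3.97 percentage points (2.30 to 5.64, or 1.11 to 6.84 when widened for 60 differences). The difference from constitutive regions was −1.91 (−3.50 to −0.25); its interval included 0 when widened (−4.59 to 0.96), and the value was −1.04 (−2.67 to 0.59) when constitutive regions were weighted to the same widths. The share did not separate from that of negative cells only (difference −0.26, −2.54 to 1.88).

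The Oct-Sox element (CATTGT, 1 free base, then ATGCAAAT, with up to 2 mismatches, so that a match can overlap an octamer match) was present in 125 gained and retained regions (5.67%, 4.78 to 6.71), against 0.41% of the downstream windows. In constitutive regions it was present in 9.91%, 4.24 percentage points more than in the gained and retained regions (interval of the difference, members minus constitutive, −5.54 to −2.88, or −6.43 to −1.88 when widened), and with 1 mismatch allowed the difference was −1.13 (−1.67 to −0.53). In regions of medium cells only it was present in 2.86%, a difference of 2.81 (1.60 to 4.04, or 0.72 to 4.94 when widened), which became 0.38 (−0.10 to 0.88) with 1 mismatch allowed. In regions of negative cells only it was present in 6.49%, and the interval of the difference included 0 (−2.63 to 0.84). Either OCT4 motif was present in 312 gained and retained regions (14.1%, 12.8 to 15.7), a lower share than in constitutive regions (19.0%, difference −4.84, −6.69 to −2.93) and a higher one than in regions of medium cells only (8.33%, difference 5.82, 3.93 to 7.71).

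Both motifs sat close to the region centres. Within 500 bp, the octamer match nearest to the centre had a median distance of 56 bp in 359 gained and retained regions, and the Oct-Sox match had a median distance of 26.5 bp in 156 regions. The octamer medians were 45 bp in constitutive regions, 106 bp in regions of medium cells only and 45 bp in regions of negative cells only. In the profile of octamer matches, the bins of 25 bp just left and just right of the centre held 44 and 74 matches in the gained and retained regions. These are 2.00 and 3.36 per 100 regions, and the bins centred at 112.5, 137.5 and 187.5 bp held 9, 2 and 8 matches. Per 100 regions, the same central bins held 3.26 and 3.24 in constitutive regions, 1.38 and 1.48 in regions of medium cells only, and 3.51 and 2.80 in regions of negative cells only.

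**Figure D2:**
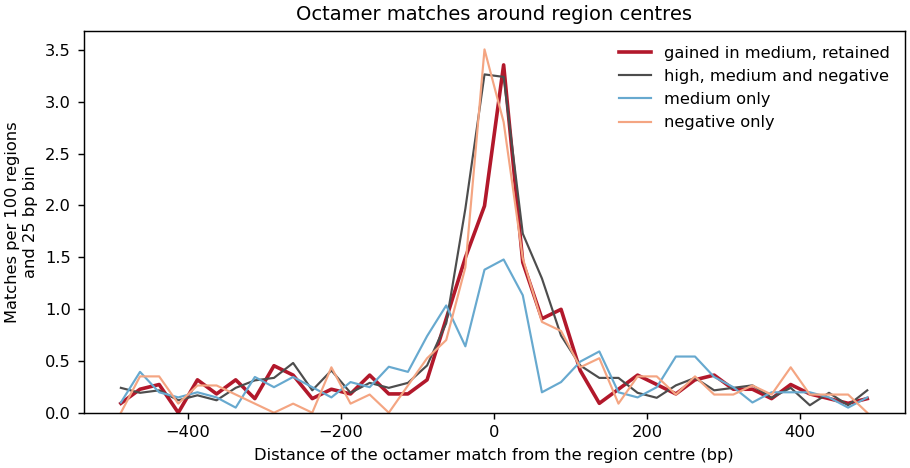
Lines give the number of octamer matches, on either strand, per 100 regions in bins of 25 bp against the distance from the region centre, for the gained and retained regions (red) and the 3 comparison groups. The red line reaches 3.36 next to the centre, and the line for regions of medium cells only stays lower there. The lines for constitutive regions and regions of negative cells only reach 3.26 and 3.51.

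Other motifs were searched in the same windows, and the plot of feature shares gives them beside the OCT4 motifs. The ESRRB element TCAAGGTCA, with up to 1 mismatch, was present in 5.67% of gained and retained regions (4.78 to 6.71), which did not separate from their downstream windows (6.71%, difference −1.04, −2.48 to 0.38). It was present in 9.56% of regions of medium cells only, and the difference of −3.89 percentage points (−5.52 to −2.30) excluded 0 also when widened (−6.69 to −1.17). The constitutive regions held it in 7.08% (difference −1.41, −2.62 to −0.13, and −3.45 to 0.83 when widened), and the regions of negative cells only in 4.21% (difference 1.46, −0.14 to 2.92). The single SOX word CATTGT was present in 10.2% of gained and retained regions and 11.2% of their downstream windows, and it was less frequent than in constitutive regions (13.1%, difference −2.92, −4.52 to −1.26, or −5.61 to −0.050 when widened). The KLF word GGGNGTGG was present in 11.8%, against 6.44% downstream, but its letters in reverse order, a word of the same composition, were present in 10.1% of the same regions. It was present in 14.8% of regions of medium cells only, a difference of −3.00 (−5.06 to −0.95) that included 0 when widened. The TEAD word GGAATG was present in 14.0% of gained and retained regions (9.61% downstream) and the AP-1 word TGANTCA in 9.89% (6.17% downstream). Their reversed words were present in 6.67% and 3.85%. TEAD was present in 16.4% of constitutive regions, 12.3% of regions of medium cells only and 15.9% of regions of negative cells only. For AP-1 these shares were 8.69%, 7.34% and 10.6%. The TEAD difference from constitutive regions was −2.43 (−4.23 to −0.56). The AP-1 difference from medium cells only was 2.54 (0.85 to 4.23). Both included 0 when widened. The OTX word GGATTA was present in 8.75% of gained and retained regions. It did not separate from its downstream share of 7.44% (difference 1.32, −0.30 to 2.93). Of the 60 differences in position, base composition and motifs, 19 had 95% intervals that excluded 0, and 8 did so when widened for 60 comparisons. None of these 8 was a difference from the regions of negative cells only.

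**Figure D3:**
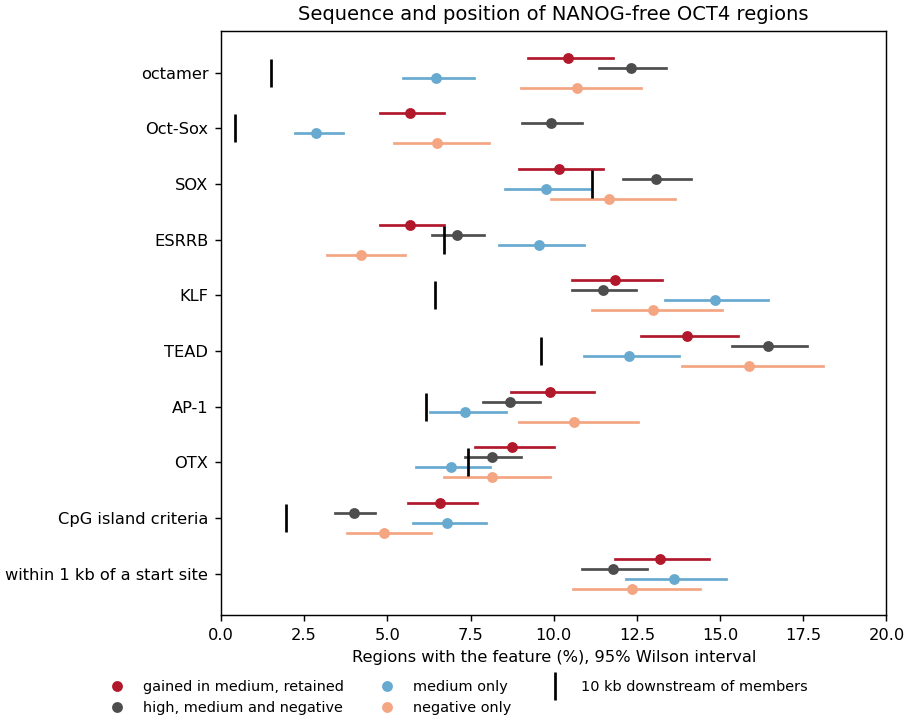
Points give the percentage of regions with each motif or property, with 95% Wilson intervals as bars, for the gained and retained regions (red), constitutive regions (grey), regions of medium cells only (blue) and of negative cells only (orange), and black ticks give the share in windows 10 kb downstream of the gained and retained regions where computed. The red octamer point stands at 10.4% with its tick at 1.50%, whereas the red ESRRB and SOX intervals contain or adjoin their ticks.

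The palindrome ATGCGCAT was present in 4.13% of gained and retained regions (3.37 to 5.04), against 0.14% of the downstream windows. Its share was 4.03% in constitutive regions, 1.77% in regions of medium cells only and 6.49% in regions of negative cells only, and 2.73% in all OCT4 regions. Of the 91 gained and retained regions with it, 12.1% lay within 1 kb of a start site and 1.10% met the CpG island criteria, so most were CG-containing words outside CpG-dense DNA. The overlapping NRF1 word GCGCATGC was present in 1.22% of gained and retained regions, against 0.14% downstream (difference 1.09, 0.62 to 1.65). Its share was 1.42% in constitutive regions, 1.03% in regions of medium cells only and 1.84% in regions of negative cells only. Which factor bound these words was not tested. Among the 8-letter words with the largest excess over the downstream windows were also CCCTCCCC (12% of regions, 3.49% downstream) and ATGCTAAT (5.99% and 0.95%). CCCTCCCC was present in 8.33% of constitutive regions, 12.7% of regions of medium cells only and 10.3% of regions of negative cells only. For ATGCTAAT these shares were 7.54%, 3.35% and 5.26%.

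The gained and retained regions varied among themselves. Either OCT4 motif was present in 12.9% of the 612 regions of 40 bp and in 15.5% of the 554 regions of 120 bp or more, and the difference of 2.61 percentage points included 0 (−1.39 to 6.67). Within 1 kb of a start site the Oct-Sox element was present in 3.09% of regions and farther away in 6.06%, a difference of −2.97 (−4.83 to −0.11), and CATTGT was present in 6.53% and 10.7% (difference −4.18, −6.92 to −0.50). A region listed for OCT4 in high cells lay within 5 kb of 513 gained and retained regions (23.3%, 21.5 to 25.1), so for these a neighbouring site was already listed in high cells. Another such region lay as near to 21.2% of constitutive regions, 28.4% of regions of medium cells only and 20.9% of regions of negative cells only. Either OCT4 motif was present in 12.9% of the 513 gained and retained regions and in 14.5% of the other gained and retained regions (difference −1.67, −4.83 to 1.88). A NANOG region of high cells lay within 5 kb of 12.1% of the gained and retained regions (10.8 to 13.5), 13.3% of the constitutive regions, 19.1% of the regions of medium cells only (17.4 to 20.8) and 9.73% of those of negative cells only. Joined across gaps of up to 10 kb, the 2205 regions fell into 2079 loci, of which 1964 held a single region.

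Part of the regions lay in repeated sequence. The window of 487 gained and retained regions (22.1%, 20.4 to 23.9) shared a run of 30 identical bases, low-complexity runs aside, with another OCT4 region more than 1 kb away. The share was 19.7% in constitutive regions, 16.7% in regions of medium cells only and 17.6% in regions of negative cells only, with differences of 2.36 (0.27 to 4.49), 5.38 (3.0 to 7.74) and 4.47 (1.61 to 7.22) percentage points. This measure was added after the data had been seen. Regions that shared a run held either OCT4 motif less often than those that did not (6.78% and 16.2%, difference −9.46, −12.1 to −6.39), and they met the CpG island criteria more often (9.45% and 5.76%, difference 3.68, 1.10 to 6.78). The run most frequent among the gained and retained regions is shown in capitals in 2 of them, since its copies carried OCT4 regions without the octamer.
Region 1, chr1:142350237-142350296, plus strand: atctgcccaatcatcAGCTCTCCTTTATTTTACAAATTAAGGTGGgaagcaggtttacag
Region 2, chr1:147181385-147181444, plus strand: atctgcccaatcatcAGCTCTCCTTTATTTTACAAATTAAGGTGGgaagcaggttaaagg
The run was present in 23 gained and retained regions and 78 OCT4 regions in all, 19 of them constitutive, 2 of medium cells only and 9 of negative cells only. Exact copies of it numbered 443 in mm9. None of the 23 regions held either OCT4 motif, and 1 lay within 1 kb of a start site. One of the 23 was the region at chr11:79789852-79789911 near *Suz12*, which encodes a core Polycomb subunit. How the aligner placed reads in repeats is not given in the sources used here, and its part in these counts was not tested.

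Genes were assigned to a region when the region lay within 20 kb of the annotated gene body. By this rule 2125 of 22380 protein-coding genes (9.5%) had a gained and retained region, 1872 of them exactly 1, and 251 genes (1.12%) had one within 1 kb of a start site. The rule gave 1552 of the 2205 regions a protein-coding gene, and 653 had none. Genes with such a region were longer than all genes (median annotated length 23908 and 15421 bp), which bears on every count below. Every gained and retained region is by rule in the lists of medium and negative cells and not in that of high cells, so OCT4 regions around a named gene are counted without it unless stated. No OCT4 region of high cells lay within the same 20 kb of 922 of the 2125 genes (43.4%), and no NANOG region of any fraction lay there for 1312 (61.7%). For the 94 annotated genes of the fixed lists with such a region, these counts were 14 (14.9%) and 39 (41.5%). The same shares over all protein-coding genes are not given, so these counts are descriptions. Of the gene lists, mesoderm and endoderm (3 of 28 genes, 10.7%) stood near the 9.5% of all protein-coding genes, and the others stood above it, as the plot of gene lists shows. All 12 lists were also above the background of 15.1% for constitutive NANOG-free regions, from 15.6% for chromatin regulators upwards.

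**Figure D4:**
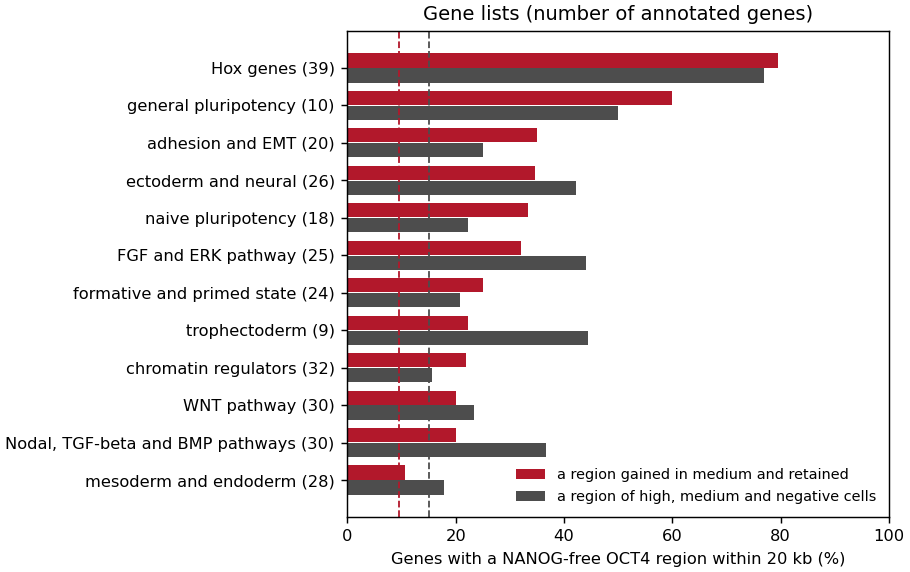
Bars give the percentage of annotated genes of each list with a gained and retained region (red) or a constitutive NANOG-free region (grey) within 20 kb of the gene body, and dashed lines give the same over all protein-coding genes, 9.5% and 15.1%. Hox genes have the longest bars in both colours and mesoderm and endoderm genes the shortest red bar.

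Of 10 general pluripotency genes, 6 had a gained and retained region and none had it within 1 kb of a start site. *Pou5f1*, the gene of OCT4 itself, had 2, at chr17:35623892-35623951 and chr17:35639252-35639431, which lay 19060 and 3640 bp upstream of its nearest start site in DNA between genes. Beside this pair, the OCT4 lists held 3 regions within 20 kb of *Pou5f1* in high cells, 3 in medium cells and 2 in negative cells. *Sox2* had 1, at chr3:34555212-34555271, in an intron of the annotation 6184 bp downstream of its start site, which is the region with the octamer shown for *Sox2*. *Tdgf1* had 2, at chr9:110854992-110855031 and chr9:110860312-110860391, the latter with the palindrome in its window but outside the interval. *Sall1* had 1 at chr8:91532852-91532891, *Utf1* 1 at chr7:147132252-147132291 and *Zfp281* 1 at chr1:138543052-138543111.

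Of 18 naive pluripotency genes, 6 had a gained and retained region. *Nanog* had 1, at chr6:122666172-122666211, 40 bp wide and 8581 bp downstream of the nearest of its start sites. Beside it, the OCT4 lists held 2 regions within 20 kb of *Nanog* in high cells, 3 in medium cells and 1 in negative cells. *Sall4*, a zinc finger gene, had 2 regions upstream, at chr2:168602672-168603031 (360 bp wide) and chr2:168605752-168605791. *Gbx2*, a homeobox gene, had 1 at chr1:91832572-91832791, 2817 bp upstream of its start site with 62% GC around the centre. *Tbx3* (chr5:120107492-120107551), *Nr5a2* (chr1:138776312-138776471, inside the gene) and *Fgf4* (chr7:152058772-152058851) had 1 each. All of these genes except *Gbx2* also had NANOG regions of high cells within 20 kb, so the absence of NANOG holds for the regions and not for the loci.

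Genes of the formative and primed state had a gained and retained region in 6 of 24 cases. *Pou3f1*, which encodes OCT6, had 2, at chr4:124327852-124327971 and chr4:124330812-124330991, 6984 and 3994 bp upstream of its start site. Beside this pair, the OCT4 lists held no region within 20 kb of *Pou3f1* in high or medium cells and 1 in negative cells. *Dnmt3b*, a de novo DNA methyltransferase gene, had 1 in an intron, at chr2:153477452-153477671. *Zic2* and *Zic5*, neighbouring zinc finger genes, shared the region at chr14:122883952-122884011. *Etv5*, an ETS gene downstream of FGF signalling, had 1 at its promoter, at chr16:22439912-22439991, 160 bp upstream of a start site. *Grhl2*, an epithelial regulator, had 1 in an intron, at chr15:37168552-37168671.

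Lineage genes were also among them. In the ectoderm and neural list, 9 of 26 annotated genes had 11 distinct regions. *Meis2* had 4, in the stretch from chr2:115881932 to chr2:115902031, of which the one at chr2:115891752-115891851 lay 227 bp from a start site. Beside these 4, the OCT4 lists held 7, 7 and 6 regions around *Meis2* in high, medium and negative cells, and no NANOG list held any. *Zic1* and *Zic4*, divergent zinc finger genes, shared the region at chr9:91256752-91256931, 409 bp from a start site of *Zic4*, and beside it OCT4 was listed around *Zic1* at 0, 1 and 1 regions in high, medium and negative cells. *Irx3* and *Hes5*, neural transcription factor genes, had 1 region each and none in high cells. Of the mesoderm and endoderm list, *Eomes*, a T-box gene of mesendoderm, had the widest of all gained and retained regions, 680 bp at chr9:118397172-118397851, and no other OCT4 region was listed around it in any fraction. *Evx1* and *Hand2* had 1 each. In the trophectoderm list, *Cdx2* had 2, at chr5:148097932-148097971 and chr5:148131832-148131931, both with the palindrome in the window. For the first of these it lay outside the interval. *Gata3* had 1 at chr2:9809472-9809531, 91 bp from a start site.

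Signalling and chromatin genes were named by the same rule. In the FGF and ERK list, 8 of 25 genes had a region: *Spry2*, an ERK feedback inhibitor, at chr14:106297012-106297211, 1076 bp upstream of its start site, *Etv1*, an ETS gene, at chr12:39505072-39505131, 865 bp upstream, *Sos1*, the RAS exchange factor, with 2 regions, *Il17rd*, an FGF antagonist gene, with 1 and *Egr1*, an immediate early gene, with 1, beside *Etv5* and *Fgf4*, named earlier, and *Fgfr2*. In the Nodal, TGF-beta and BMP list, 6 of 30 genes had a region, among them *Nodal* (chr10:60879512-60879551, 1188 bp upstream) and *Foxh1*, a SMAD partner (chr15:76500332-76500391, 16 bp from its start site). *Fst*, the activin antagonist, had 1 at chr13:115250812-115250971, and *Id2* and *Ski* had 1 each. In the WNT list, 6 of 30 genes had a region. *Wnt5a* had it 194 bp upstream of a start site at chr14:29317692-29317791, *Tcf7l1*, which encodes TCF3, in an intron at chr6:72720172-72720331, and *Fzd10*, a receptor gene, had 2 adjacent regions on chromosome 5. *Znrf3*, a ubiquitin ligase gene that limits WNT receptors, had 2 and no OCT4 region in high cells. Of 32 chromatin regulators, 7 had a region, among them *Tet1* with 2 octamer regions and the Polycomb genes *Suz12* and *Eed* (chr7:97133212-97133271). Of 20 adhesion and EMT genes, 7 had one, among them *Cdh1*, which encodes E-cadherin (chr8:109123652-109123911), *Zeb2* with 2 and *Epcam* (chr17:88054832-88054871).

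The Hox clusters stood out by count, with 31 of 39 genes, but the clusters are compact and 1 region counts for several neighbours. Constitutive NANOG-free regions gave a similar count, 30 of 39 genes from 15 distinct regions. The 31 genes rested on 16 distinct gained and retained regions, 2 at Hoxa, 6 at Hoxb, 5 at Hoxc and 3 at Hoxd, which is 0.73% of all gained and retained regions (0.45 to 1.18). The share was 0.36% in constitutive regions, a difference of 0.37 percentage points (0.0023 to 0.84), 0.49% in regions of medium cells only, a difference of 0.23 (−0.26 to 0.74), and 1.31% in regions of negative cells only, a difference of −0.59 (−1.48 to 0.096); these differences were computed apart from the 60 others. Of the 75 regions within 20 kb of Hox genes, 72 were OCT4 regions, 0.39% of all 18292 OCT4 regions. Of these, 69 were in no NANOG list, and NANOG-free regions were also the majority in every combination of OCT4 lists of the series. Beside the gained and retained regions, the OCT4 lists held 7 regions at Hoxc in high cells, 5 in medium cells and 11 in negative cells, and no NANOG list held any there. At Hoxb they held 11, 14 and 13, at Hoxd 8, 9 and 8, and at Hoxa 5, 4 and 5.

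**Figure D5:**
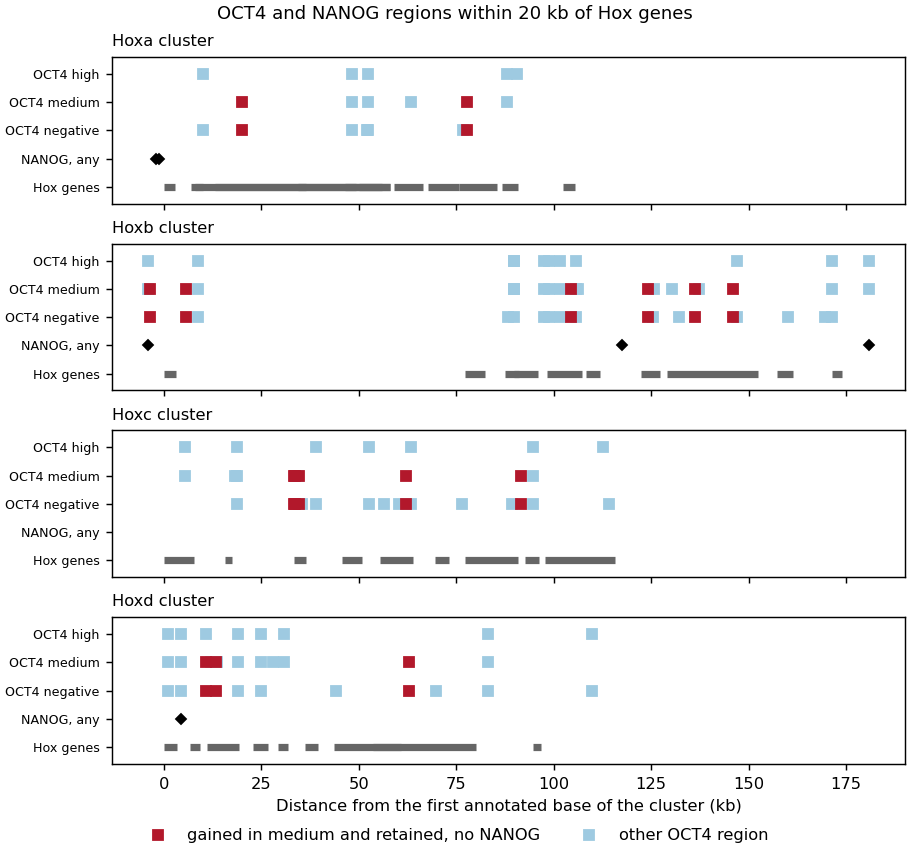
For each Hox cluster, squares mark OCT4 regions in the lists of high, medium and negative cells (red for gained and retained regions, blue for others), diamonds mark regions of any NANOG list and grey bars mark Hox genes, against the distance in kb from the first annotated base. Red squares number 2, 6, 5 and 3 regions at Hoxa, Hoxb, Hoxc and Hoxd, and no diamond is drawn at Hoxc.

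The 16 Hox regions were GC-rich and mostly without OCT4 motifs. Their median GC content was 56%, 6 met the CpG island criteria, 8 lay within 1 kb of a start site and 1, the region at *Hoxd3* whose sequence is given, held either OCT4 motif. At *Hoxc11*, a posterior gene, 3 regions had their centres in the first 1304 bp of the gene, at chr15:102784912-102784971, chr15:102785092-102785211 and chr15:102786132-102786191. At *Hoxa10* the region at chr6:52182712-52183331 was 620 bp wide and its centre lay 301 bp from a start site. *Hoxb4* had 4 regions within 20 kb, more than any other Hox gene but *Hoxc10*, which also had 4. At *Hoxd11*, 2 regions lay 227 and 304 bp from its start sites, at chr2:74517152-74517291 and chr2:74519532-74519971.

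Of the 10 protein-coding genes with the most gained and retained regions, which include listed genes, some were very long. *Gm20388*, an annotated gene model of 4434882 bp on chromosome 8, had 7, and *Fgfr2*, an FGF receptor gene whose annotated body spans 3009069 bp here, had 6, of which the one nearest to any of its start sites, at chr7:137412872-137412931, was 2580 bp away. *Pax7*, a paired homeobox gene of neural crest and muscle progenitors, had 5 in a body of 96469 bp, all within 13000 bp of a start site. They ran from chr4:139375892 to chr4:139392131 and formed the locus with the most gained and retained regions in the genome. Beside these 5, the OCT4 lists held 3 regions around *Pax7* in high cells, 5 in medium cells and 2 in negative cells, and no NANOG list held any. Another 10 genes had 4 regions, among them *Celf4*, *Clybl*, *Etl4*, *Hoxb4*, *Hoxc10* and *Meis2*. One of the 4 regions of *Clybl*, at chr14:122741452-122741511, held both the octamer and the Oct-Sox element.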

How the data were processed

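OCT4 and NANOG ChIP-Seq of 3 sorted fractions of E-GFPd1 ESCs gave 6 lists, grouped by antibody and fraction from the sample labels. The authors aligned reads (Bowtie, mm9), used SISSRs as peak caller, joined peaks that overlapped between datasets, and dropped from a fraction each region with too little of its highest depth-normalised signal. The deposited lists hold intervals only, with no score, count or signal, and no interval overlapped another. Members were matched exactly between lists.

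Start sites, exons and genes came from GENCODE for mm9 (37310 genes). A total of 14 motifs were searched in 200 bp around each centre, on both strands, and in windows 10 kb downstream. Shares have 95% Wilson intervals and differences have Newcombe intervals, also at the Bonferroni level for 60 differences. Named genes were those of 12 gene lists with a member within 20 kb, and the 10 protein-coding genes with most members (ties by symbol); a gene that this rule names is not reported here. The members and lists were chosen with earlier results of these data known. Alternatives changed the member rule, widths, windows, loci, motif mismatches and gene distance. Python 3.11.15, numpy 2.4.6, pandas, scipy 1.17.1, pysam 0.24.0 and samtools 1.23.1 were used, and the functions were tested on simulated data.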

Additional observations from a re-analysis of the deposited data

How the results depend on the processing

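No paired analysis was possible because each factor and fraction has 1 library, and no replicate could be left out. The lists hold no depth, so a weak region and an absent one cannot be told apart from the lists alone, and the cause of each change given here was not tested. Keeping regions of the median width of 80 bp or more left 999 members, by construction. The number of genes was 1218 within 5 kb, 3581 within 50 kb and 1359 with the closest gene only. Of 21 differences followed through the alternatives, none reversed with an interval that excluded 0. The octamer difference from constitutive regions was −1.65 with 1 region per locus, −1.04 at equal widths and −1.75 without promoters, each with an interval that included 0. The ESRRB difference from constitutive regions likewise lost its side at −1.21 (1 region per locus), −0.43 (window of 50 bp either side), −1.25 (without promoters) and −1.28 (without regions sharing a run, an alternative chosen after seeing the data), and that from negative cells only reached 1.61 with an interval above 0 at equal widths. With 1 mismatch, the Oct-Sox difference was 0.38 from medium cells only and −1.13 from constitutive regions (−4.24 with 2), the latter still excluding 0. The CATTGT difference was −2.17 from constitutive regions in the widest window, including 0, and −2.06 from negative cells only in the narrowest, excluding it. The promoter difference from constitutive regions was 2.39 within 5 kb, excluding 0. Among wide regions, the difference in the share between genes was −4.07 from constitutive regions, excluding 0, and −4.77 from negative cells only, including it. With the side of 0 kept, the widest window moved the octamer difference from medium cells only from 3.97 to 2.45 and the ESRRB differences to −7.08 (medium cells only) and −3.21 (constitutive), and the narrowest moved that from medium cells only to −2.02. In all, 104 values did not change whether their interval excluded 0, or, for counts, stayed within 1.5 times.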
